A study of Mus musculus with 8 samples.

Results

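The genes described here are 49 genes of DNA replication and mitosis, measured by bulk RNA-seq in mouse small intestinal crypts and villi. They are a list of names, chosen with earlier results of these data known, and the rule uses no measured value: 28 genes of DNA replication and 21 genes of mitosis. Of the 49, 48 were in the tables of both tissues, which hold 11554 genes in crypts and 12701 in villi. The flap endonuclease gene *Fen1* was in neither table, so 27 replication genes and 21 mitosis genes have values. The groups were Ctrl mice and *Gli1-Ptgs* cKO mice on a C57BL/6 background, with 2 libraries per group and tissue. In *Gli1-Ptgs* cKO mice a tamoxifen-induced Cre driven by Gli1 deletes floxed *Ptgs1* and *Ptgs2* in mesenchymal cells that express Gli1. These genes encode the prostaglandin-making enzymes COX1 and COX2. Samples of both groups, Ctrl included, are recorded as taken 1 month after tamoxifen. The study describes Ctrl mice in one place as floxed for both genes without Cre, while the sample labels call them WT and name Gli1-CreERT2; Rosa26-tdTomato mice as a source, so whether controls carried the Cre and the reporter cannot be told. The age of the mice and the number pooled per library are not given in the sources used here. The comparison asks how the deletion in mesenchymal cells bears on the neighbouring epithelium, and the 2 tissues place it on proliferating and non-proliferating cells.

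Small intestinal crypts hold the stem cells and the rapidly dividing transit-amplifying cells, whose daughters stop dividing as they move onto the villus. Replication starts when the origin recognition complex, *Cdc6* and *Cdt1* load the MCM2-7 helicase onto DNA in G1. Cyclin E kinase, *Cdc45* and GINS then start the helicase, and polymerases follow with the sliding clamp PCNA. Mitosis needs *Cdk1* with cyclin B, the kinases *Plk1* and Aurora, the kinetochore and the spindle checkpoint, whose partner *Cdc20* directs the anaphase-promoting complex. Replication genes are typically transcribed from E2F sites around the G1/S border. Mitosis genes are typically transcribed in G2 from promoters with CCAAT boxes and a cell cycle homology region (CHR), which B-MYB, MuvB and NF-Y bind.

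Depth and library composition set how far single values can be read. The crypt libraries held between 16853017 and 21121714 reads on the listed genes and the villus libraries between 13477600 and 15751024. The 2 Ctrl villus columns held identical values and were counted as 1 library, so no villus comparison could be tested. Values are normalized counts, the reads of a gene over the DESeq2 size factor of its library. *Ptgs1*, one of the deleted genes, stood at 365 and 164 in Ctrl crypts and at 178 and 199 in *Gli1-Ptgs* cKO crypts, which overlap, and *Ptgs2* and Gli1 were not among the listed genes. In *Gli1-Ptgs* cKO crypt replicate 1 the log2 difference from Ctrl fell with transcript length, with a Spearman correlation of -0.66 across 11552 genes that share the library. It was 0.31 in *Gli1-Ptgs* cKO crypt replicate 2 and 0.54 and 0.51 in the *Gli1-Ptgs* cKO villus libraries. The 10 crypt stem cell markers summed to between 5222 and 5982 CPM, reads scaled to one common library total, in crypts and between 199 and 465 in villi, and the 10 enterocyte markers to between 5335 and 8350 in crypts and between 23509 and 31059 in villi, as the tissue labels say.

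Every one of the 48 listed genes was higher in crypts than in villi. Both Ctrl crypt libraries held more than 2-fold the CPM of the Ctrl villus library for 48 of 48 members, against 50.5% of the 11227 genes in both tables. Both *Gli1-Ptgs* cKO crypt libraries were likewise more than 2-fold above both *Gli1-Ptgs* cKO villus libraries for 48 of 48, against 21.3% of all shared genes. The members summed to 5015 and 4680 CPM in Ctrl crypts and to 4291 and 4405 CPM in *Gli1-Ptgs* cKO crypts. In villi they summed to 586 CPM in Ctrl and to 826 and 797 CPM in *Gli1-Ptgs* cKO. In villi both *Gli1-Ptgs* cKO libraries lay above the Ctrl library. Under library size scaling, as in CPM, the median log2 difference of all villus genes was itself 0.42. A higher CPM in *Gli1-Ptgs* cKO villi was thus not particular to the members. In crypts the sums of the replication genes overlapped between the groups (2435 and 2139 CPM in Ctrl, 2310 and 2077 CPM in *Gli1-Ptgs* cKO), and those of the mitosis genes did not (2580 and 2541 against 1982 and 2328 CPM). *Top2a* and *Mki67* together made up 872 and 840 CPM in Ctrl and 460 and 806 CPM in *Gli1-Ptgs* cKO, so the low mitosis sum of replicate 1 rests largely on these long transcripts. In such bulk samples fewer dividing cells and less RNA per dividing cell cannot be told apart. The tables of the tissues were normalized separately and CPM was set over the shared genes, so the tissue values are a description without a test.

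Mitosis genes were further apart between the tissues than replication genes. In Ctrl the median crypt-over-villus fold was 6.31 for the 27 replication genes and 11.7 for the 21 mitosis genes, and in *Gli1-Ptgs* cKO 5.05 and 6.41. The median of all shared genes was itself 1.16 on the log2 scale in Ctrl and 0.59 in *Gli1-Ptgs* cKO. Relative to it, the log2 medians were 1.5 for replication and 2.39 for mitosis in Ctrl. In *Gli1-Ptgs* cKO they were 1.74 and 2.09. The mitosis median exceeded the replication median by 0.69 and 1.09 on the log2 scale in the Ctrl crypt libraries, and by 0.09 to 0.46 over the 4 pairs of *Gli1-Ptgs* cKO libraries. These ranges do not overlap, but both Ctrl values share the single Ctrl villus library. Among transcripts of 2500 to 5000 bases, which leave 17 replication and 11 mitosis genes, the excess was 0.91 and 1.23 in Ctrl and 0.31 to 0.45 in *Gli1-Ptgs* cKO.

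The span of the single genes was wide. In Ctrl the fold of crypts over villi ran from 2.63 for the centromeric histone *Cenpa* to 73.7 for the kinetochore motor *Cenpe*. The kinetochore gene *Cenpf* had a fold of 72.9, the checkpoint kinase gene *Bub1* 44.2, the DNA polymerase alpha gene *Pola1* 47.4, the proliferation marker *Mki67* 42.9 and the topoisomerase gene *Top2a* 41.0. *Top2a* held 497 and 480 CPM in the Ctrl crypts and 11.8 CPM in the Ctrl villus library. At the other end stood *Gins2*, a subunit of the GINS complex, with a fold of 3.18, and *Cdc20* with 3.66. In *Gli1-Ptgs* cKO the folds were closer together and ran from 2.88 for *Pcna* to 11.2 for *Pola1*. There *Cenpe* stood at 6.41, *Cenpf* at 7.20, *Bub1* at 6.47 and *Mki67* at 5.38. The Ctrl villus values of *Cenpe*, *Cenpf*, *Bub1* and *Pola1* rest on 11 to 15 reads. Across 11225 genes the log2 ratio of crypts over villi had Spearman correlations with transcript length of 0.43 and 0.47 in Ctrl. Over the pairs of *Gli1-Ptgs* cKO libraries they ran from -0.15 to 0.32. The part of length in these spans was not tested.

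**Figure D1:**
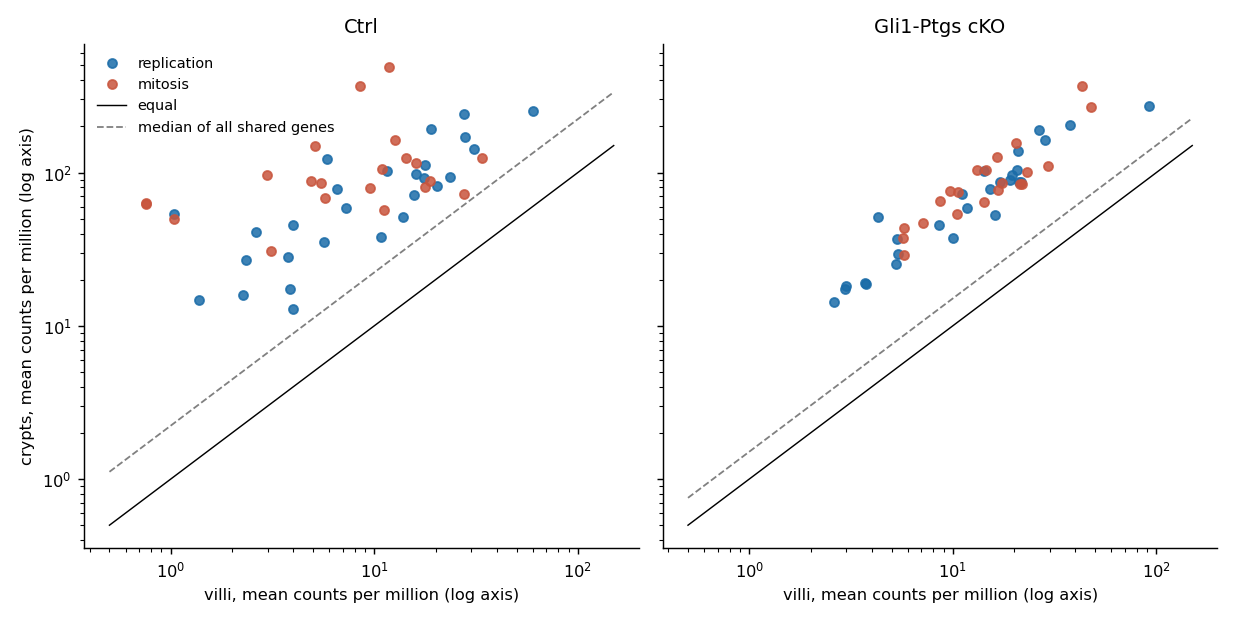
Mean CPM of the 48 listed members in villi (horizontal, log axis) and crypts (vertical, log axis), for Ctrl on the left (2 crypt libraries, 1 villus library) and *Gli1-Ptgs* cKO on the right (2 and 2). All points lie above the solid line of equal levels and above the dashed median of all shared genes, and the mitosis genes at the left of the Ctrl panel, *Cenpe*, *Cenpf* and *Bub1*, have no counterpart at so low a villus level in *Gli1-Ptgs* cKO.

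The promoters of the replication and mitosis genes differed in the motifs they hold, which is why those of 4 highly expressed members are shown. RefSeq promoters of GRCm38.p6, from 250 bases before to 50 after the start, were matched for 40 members, 23 of replication and 17 of mitosis. An E2F motif (TTTCCCGC, TTTCGCGC, TTTGCCGC or TTTGGCGC, on either strand) stood in 11 of 23 replication genes and in 1 of 17 mitosis genes, which was *Cdk1*, against 2.6% of the 27025 genes with a promoter. A CHR motif (TTTGAA or TTCGAA) stood in 5 of 23 and 13 of 17, against 21.7% of all. A CCAAT box stood in 14 of 23 and 15 of 17, against 41.1% of all. Among the 9206 genes listed in crypts, the shares were 4.78% for E2F, 16.6% for CHR and 43.3% for CCAAT. Matches are descriptions of letters, not of binding. In the lines that follow, capitals mark these motifs, which overlap each other in *Mcm7* (the 3' E2F motif and a CCAAT box) and in *Mcm6* (2 E2F motifs on opposite strands). *Mcm7* (chr5:138171834-138172133, minus strand) and *Mcm6* (chr1:128359656-128359955, minus strand) carry E2F motifs and CCAAT boxes, and *Mcm7* also 1 CHR motif. *Top2a* (chr11:99024140-99024439, minus strand) and *Cdc20* (chr4:118437294-118437593, minus strand) carry CHR motifs and CCAAT boxes and no E2F motif.
Mcm7: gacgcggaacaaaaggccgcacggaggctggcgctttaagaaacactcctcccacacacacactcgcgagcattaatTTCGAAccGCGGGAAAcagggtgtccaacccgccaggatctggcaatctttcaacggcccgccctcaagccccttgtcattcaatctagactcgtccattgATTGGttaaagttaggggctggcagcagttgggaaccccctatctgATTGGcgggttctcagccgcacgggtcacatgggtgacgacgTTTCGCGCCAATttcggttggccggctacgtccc
Mcm6: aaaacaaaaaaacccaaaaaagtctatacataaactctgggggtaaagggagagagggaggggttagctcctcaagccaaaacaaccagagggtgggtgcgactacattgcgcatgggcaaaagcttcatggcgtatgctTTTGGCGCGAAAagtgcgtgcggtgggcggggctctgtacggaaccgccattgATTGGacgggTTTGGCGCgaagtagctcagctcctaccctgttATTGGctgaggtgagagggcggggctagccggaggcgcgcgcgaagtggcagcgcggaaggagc
Top2a: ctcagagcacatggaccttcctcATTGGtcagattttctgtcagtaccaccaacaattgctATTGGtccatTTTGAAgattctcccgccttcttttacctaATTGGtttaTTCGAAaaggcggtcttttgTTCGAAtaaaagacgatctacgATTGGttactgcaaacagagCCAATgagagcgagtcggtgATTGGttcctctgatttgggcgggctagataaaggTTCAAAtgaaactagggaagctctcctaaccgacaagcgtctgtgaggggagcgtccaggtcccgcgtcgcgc
Cdc20: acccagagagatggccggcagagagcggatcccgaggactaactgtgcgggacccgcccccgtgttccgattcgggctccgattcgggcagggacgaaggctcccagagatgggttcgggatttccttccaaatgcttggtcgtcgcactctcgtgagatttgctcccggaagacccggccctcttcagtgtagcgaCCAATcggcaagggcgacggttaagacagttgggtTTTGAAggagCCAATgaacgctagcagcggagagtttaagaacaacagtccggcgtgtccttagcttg
The *Top2a* promoter holds 4 CHR motifs and 6 CCAAT boxes, the most of any matched member for both. *Cdc20* holds 1 CHR motif, which begins at position -18 from the start. Of the mitosis genes whose crypt groups did not overlap between Ctrl and *Gli1-Ptgs* cKO, *Mki67*, *Top2a*, *Cenpf*, *Bub1* and *Plk1* hold a CHR motif, and *Cenpe*, *Ccnb1* and *Nusap1* hold none in this window.

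In the crypts of Ctrl mice, levels were compared per kb of the longest annotated transcript, which may not be the one expressed. The 6 replication genes with the most normalized counts per kb of transcript were *Pcna* (3079), *Mcm7* (1076), *Mcm6* (1023), *Mcm5* (784), *Rrm2* (662) and *Rrm1* (658). Among mitosis genes they were *Top2a* (1746), *Cdc20* (1299), *Ccnb2* (1073), *Ccna2* (1032), *Plk1* (976) and *Ccnb1* (937). The 6 MCM subunits, which form a single ring, lay between 498 (*Mcm3*) and 1076 (*Mcm7*) normalized counts per kb.

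Between *Gli1-Ptgs* cKO and Ctrl crypts no member passed a test. At a Benjamini-Hochberg adjusted p under 0.05 by limma-trend, 0 of 48 members were called, against 0% of all genes, and the lowest adjusted p of any member was 1.00. The study's threshold, p under 0.01 with an absolute log2 fold change over 1, called 0 members, against 0.173% of all genes called higher and 0.00866% lower. No member had an unadjusted p under 0.05, where 73 of 11554 genes did, and DESeq2 and edgeR on the recovered reads also called 0 members. Standard errors of the members' log2 fold changes ran from 0.23 to 0.51. With 2 libraries per group, the smallest two-sided p of an exact permutation test is 0.333. The median log2 fold change was -0.01 for replication, from -0.45 to 0.54, and -0.12 for mitosis, from -0.50 to 0.25, beside -0.01 for all genes.

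**Figure D2:**
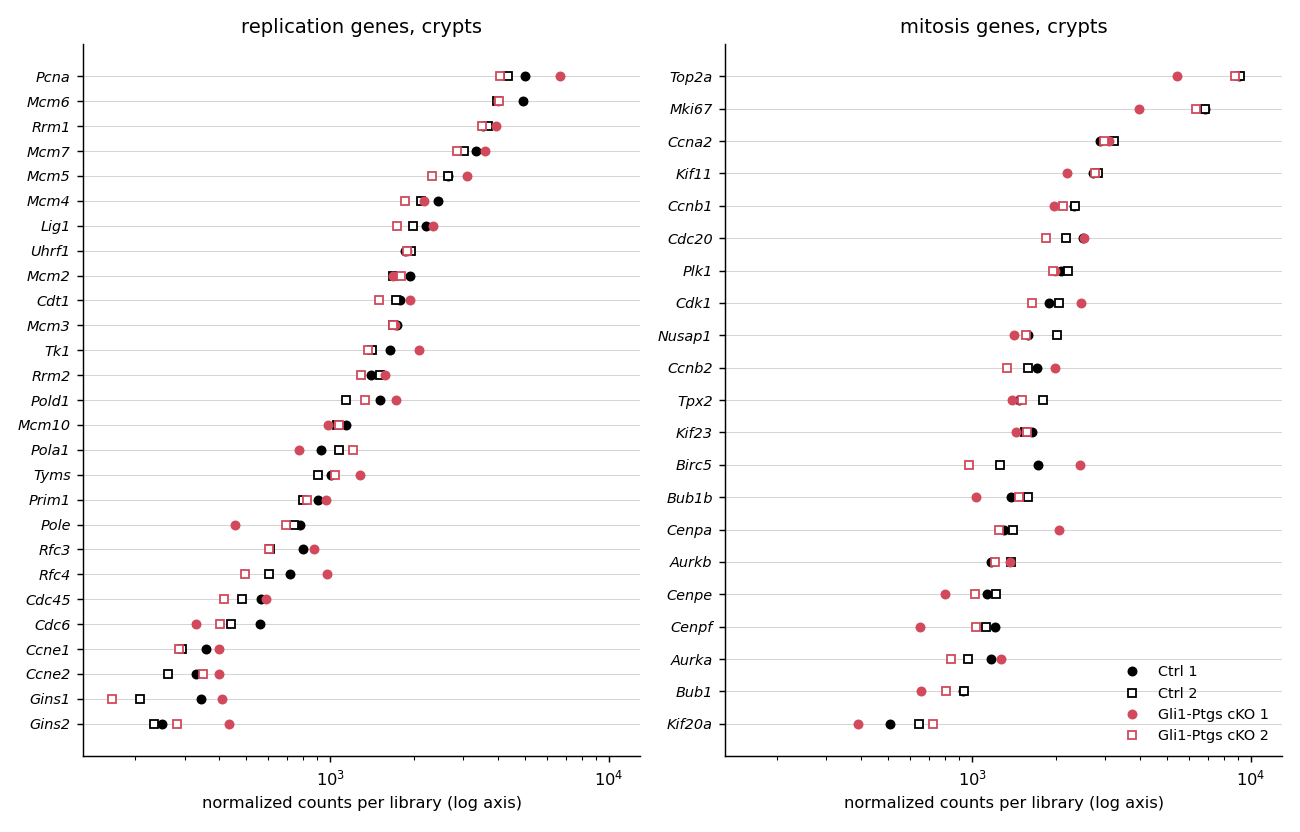
Normalized counts in each crypt library (log axis) for the 27 replication genes on the left and the 21 mitosis genes on the right, ordered by their Ctrl mean. Black symbols are the Ctrl libraries and red symbols the *Gli1-Ptgs* cKO libraries, with circles for replicate 1 and squares for replicate 2. *Top2a* and *Mki67* stand out by *Gli1-Ptgs* cKO replicate 1 (5450 and 3974) below the other 3 libraries.

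Counting only where both *Gli1-Ptgs* cKO libraries lay above or both lay below the 2 Ctrl libraries, replication and mitosis genes had different counts. Of 27 replication genes 3 were higher in *Gli1-Ptgs* cKO crypts (*Gins2*, *Tyms* and *Ccne2*), against 9.73% of all genes, and 2 were lower (*Cdc6* and *Pole*), against 11.3% of all genes. Of 21 mitosis genes 0 were higher and 8 were lower, which is 38.1% of the group (*Top2a*, *Mki67*, *Cenpf*, *Cenpe*, *Bub1*, *Nusap1*, *Plk1* and *Ccnb1*). After removal of the transcript length trend from each library, 3 replication genes were higher and 6 lower, and 0 mitosis genes were higher and 9 lower, against 13.3% of all genes higher and 15.1% lower. *Gli1-Ptgs* cKO replicate 2 alone, without the library with the strong length trend, lay below both Ctrl libraries for 16 of 27 replication and 14 of 21 mitosis genes, against 35.6% of all genes. It lay above both for 4 and 1, against 30.7%.

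Licensing genes, which load the helicase, were close to Ctrl except *Cdc6*. *Mcm7* had 3348 and 3025 normalized counts in Ctrl against 3583 and 2842 in *Gli1-Ptgs* cKO. *Mcm6* had 4927 and 3983 in Ctrl against 4017 and 4024 in *Gli1-Ptgs* cKO. *Mcm5* had 2657 and 2647 in Ctrl against 3095 and 2321 in *Gli1-Ptgs* cKO. For all 3 subunits the groups overlapped, and the log2 fold changes of all 6 MCM genes lay between -0.18 (*Mcm4*) and 0.02 (*Mcm5*). *Cdc6*, the loader of the helicase, had 558 and 440 in Ctrl against 329 and 401 in *Gli1-Ptgs* cKO. Both *Gli1-Ptgs* cKO values were the lower, with a log2 fold change of -0.45 and a standard error of 0.30. Its loading partner *Cdt1* had a log2 fold change of -0.04.

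The highest log2 fold changes of all members were those of *Gins2*, in helicase activation, and *Ccne2*, among the cyclins of the G1/S border. Their classes did not share them. The helicase activation genes *Mcm10* and *Cdc45* had log2 fold changes of -0.09 and -0.08. *Gins2* had 248 and 233 normalized counts in Ctrl against 432 and 283 in *Gli1-Ptgs* cKO, with a log2 fold change of 0.54 and a standard error of 0.34. Another GINS subunit, *Gins1*, had 343 and 208 in Ctrl against 410 and 164 in *Gli1-Ptgs* cKO. The 2 *Gli1-Ptgs* cKO libraries were the highest and the lowest of the 4. The log2 fold change of *Gins1* was -0.04, or -0.37 after the length correction. *Gins3* and *Gins4*, which are not members, had log2 fold changes of 0.18 and 0.25, and their groups overlapped. Among these subunits of one complex only *Gins2* did not overlap between the groups, and only *Gins1* had a negative log2 fold change. *Ccne2*, a cyclin E, had 330 and 262 in Ctrl against 400 and 349 in *Gli1-Ptgs* cKO, with a log2 fold change of 0.34 and a standard error of 0.30. The other cyclin E, *Ccne1*, had a log2 fold change of 0.06.

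Nucleotide supply and fork genes mostly overlapped between the groups. *Pcna*, the sliding clamp, had 4985 and 4361 normalized counts in Ctrl against 6690 and 4056 in *Gli1-Ptgs* cKO. The ribonucleotide reductase subunits *Rrm1* (3533 and 3673 in Ctrl, 3924 and 3514 in *Gli1-Ptgs* cKO) and *Rrm2* (1399 and 1506 in Ctrl, 1576 and 1291 in *Gli1-Ptgs* cKO) likewise overlapped. Thymidylate synthase *Tyms*, with 1006 and 907 in Ctrl against 1278 and 1039 in *Gli1-Ptgs* cKO, did not overlap and had a log2 fold change of 0.27. The catalytic subunit of the leading strand polymerase, *Pole*, had 781 and 743 in Ctrl against 454 and 692 in *Gli1-Ptgs* cKO, with a log2 fold change of -0.44 and a standard error of 0.30. Its longest transcript has 7163 bases, the longest of the replication genes, and after the length correction its log2 fold change was -0.22. The lagging strand polymerase gene *Pold1* stood at 0.20, and the methylation maintenance gene *Uhrf1* at -0.01.

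Most mitotic cyclins and kinases overlapped between the groups in the deposited values. *Ccna2*, which acts in S phase as well as before mitosis, had 2880 and 3242 normalized counts in Ctrl against 3107 and 2975 in *Gli1-Ptgs* cKO. *Ccnb1* had 2326 and 2339 in Ctrl against 1961 and 2124 in *Gli1-Ptgs* cKO, and *Plk1* had 2079 and 2214 in Ctrl against 1991 and 1959 in *Gli1-Ptgs* cKO. *Ccnb1* and *Plk1* did not overlap between the groups, with small log2 fold changes of -0.19 and -0.12 and a standard error of 0.23 for both. *Ccnb2* had 1705 and 1581 in Ctrl against 1987 and 1336 in *Gli1-Ptgs* cKO, and *Cdc20* had 2491 and 2166 in Ctrl against 2518 and 1838 in *Gli1-Ptgs* cKO. For these and for *Cdk1* (log2 fold change 0.03) and the Aurora kinases *Aurka* (-0.04) and *Aurkb* (0.02) the groups overlapped. After the length correction the log2 fold changes of the short transcripts were lower, -0.23 for *Ccnb2*, -0.19 for *Aurka*, -0.23 for *Plk1* and -0.28 for *Cdc20*. *Ccnb2*, *Aurka* and *Cdc20* then did not overlap between the groups, with *Gli1-Ptgs* cKO the lower, and *Plk1* did.

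The lower values of the mitosis genes were largest in the long transcripts of the chromosome surface and kinetochore. *Top2a*, which untangles sister chromatids, had 9114 and 9122 normalized counts in Ctrl against 5450 and 8771 in *Gli1-Ptgs* cKO (log2 fold change -0.40, standard error 0.31). *Mki67*, which coats mitotic chromosomes, had 6857 and 6831 in Ctrl against 3974 and 6380 in *Gli1-Ptgs* cKO (log2 fold change -0.44, standard error 0.30). In both genes the Ctrl libraries were nearly equal, *Gli1-Ptgs* cKO replicate 2 was slightly below them and replicate 1 far below. *Cenpf* had 1211 and 1118 in Ctrl against 651 and 1033 in *Gli1-Ptgs* cKO, with a log2 fold change of -0.50 and a standard error of 0.30. *Cenpe* had 1130 and 1222 in Ctrl against 798 and 1025 in *Gli1-Ptgs* cKO (log2 fold change -0.38). Their longest transcripts have 5221 (*Top2a*), 7910 (*Cenpe*), 10061 (*Mki67*) and 11130 bases (*Cenpf*). After the length correction the log2 fold changes were -0.27 for *Top2a*, -0.13 for *Cenpe*, -0.14 for *Mki67* and -0.18 for *Cenpf*, and *Cenpe* and *Cenpf* then overlapped between the groups. Without *Gli1-Ptgs* cKO replicate 2, so that replicate 1 stood alone and was assumed to vary like the Ctrl libraries, limma-trend called 1987 genes and 5 members (*Mki67*, *Top2a*, *Cenpf* and *Pole* lower, *Cenpa* higher) at an adjusted p under 0.05. Without replicate 1 it called 0 members.

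*Bub1* and *Nusap1*, with shorter transcripts, kept their values under that correction. *Bub1*, with a transcript of 3421 bases, had 927 and 935 normalized counts in Ctrl against 657 and 803 in *Gli1-Ptgs* cKO. The log2 fold change of *Bub1* was -0.36 (standard error 0.25), and -0.35 after the length correction. *Nusap1*, which bundles spindle microtubules, had a log2 fold change of -0.27 and -0.25 after the correction. *Birc5*, a member of the chromosomal passenger complex, had 1722 and 1254 in Ctrl against 2440 and 971 in *Gli1-Ptgs* cKO, with the 2 *Gli1-Ptgs* cKO libraries at the extremes. *Cenpa* had the highest log2 fold change of the mitosis genes, 0.25, from 1305 and 1404 in Ctrl against 2058 and 1252 in *Gli1-Ptgs* cKO, and its groups overlapped.

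In villi the mitosis genes were on balance higher and the replication genes were split. Both *Gli1-Ptgs* cKO villus libraries lay above the single Ctrl library for 14 of 21 mitosis and 11 of 27 replication genes, against 43.7% of all genes. They lay below it for 7 of 21 and 13 of 27, against 44.2%. More than 2-fold above were 8 of 21 mitosis genes and 1 of 27 replication genes, against 10.6% of all genes. More than 2-fold below were 0 of either group, against 6.4%. The median log2 difference from Ctrl was 0.25 for mitosis, from -0.77 to 2.71, and 0.01 for replication, from -0.99 to 1.57, beside -0.01 for all genes. With 1 Ctrl library none of these values has a test, and under library size scaling, where all genes had a median of 0.42, they were 0.68 and 0.44.

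**Figure D3:**
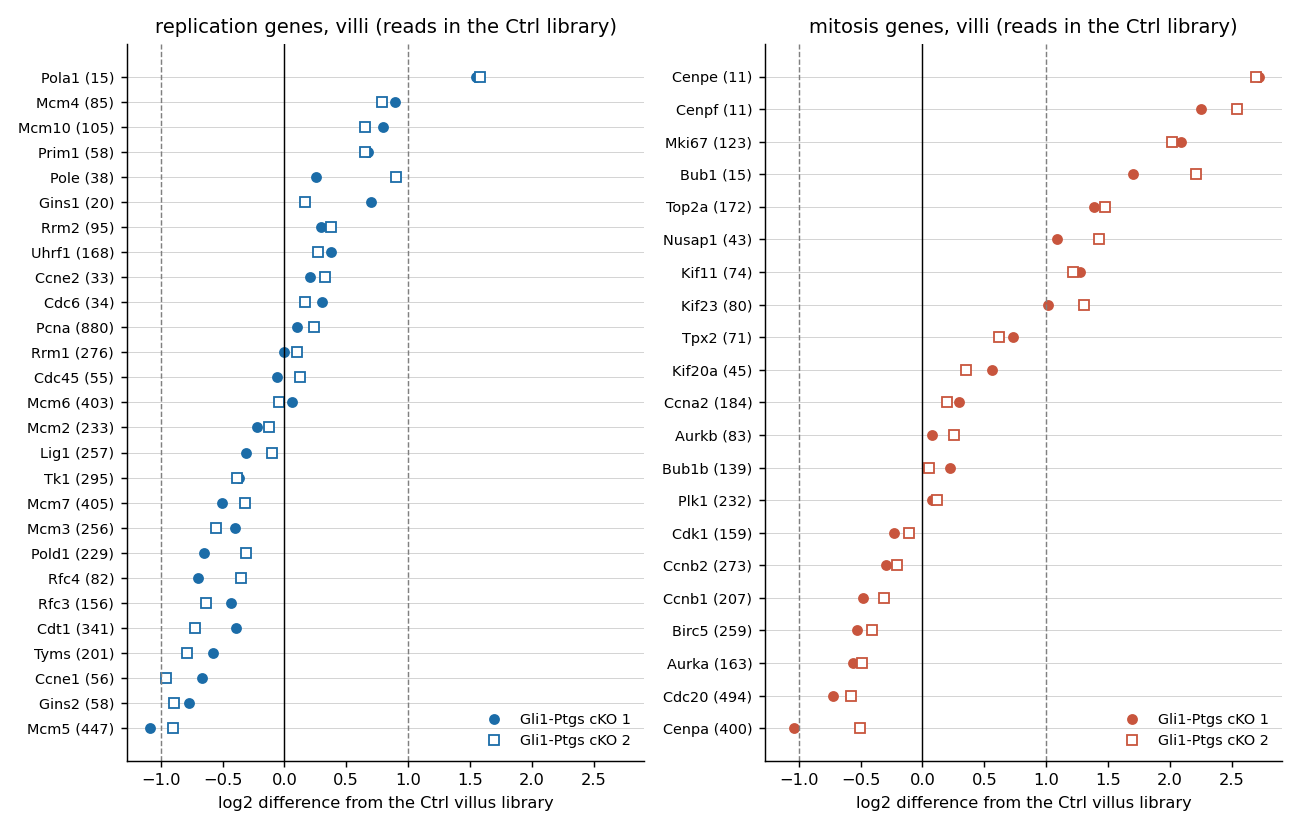
Log2 difference of each *Gli1-Ptgs* cKO villus library from the Ctrl villus library on log2(normalized count + 1), for replication genes on the left and mitosis genes on the right, with the reads in the Ctrl library in brackets. Filled circles are replicate 1, open squares replicate 2 and dashed lines mark 2-fold. The 8 mitosis genes from *Cenpe* to *Kif23* and the replication gene *Pola1* lie beyond the right line in both libraries.

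Of the 9 members beyond 2-fold in villi, 4 had at most 15 reads in the Ctrl library. *Cenpe* (ENSMUSG00000045328, chromosome 3 of GRCm38 from 135212537 to 135273611) had 12.7 normalized counts in Ctrl against 89.5 and 87.9 in *Gli1-Ptgs* cKO, a mean log2 difference of 2.71. The Ctrl value rests on 11 reads (95% exact Poisson interval 5.49 to 19.7, counting error only), the *Gli1-Ptgs* cKO values on 117 and 91. *Cenpf* (ENSMUSG00000026605, chromosome 1 from 189640606 to 189688086) had 12.7 in Ctrl, also from 11 reads, and 64.2 and 79.2 in *Gli1-Ptgs* cKO, a mean log2 difference of 2.40. The interval covers the counting of 1 library and not the spread between villus libraries of Ctrl mice, which was not measured. *Bub1* (ENSMUSG00000027379, chromosome 2 from 127801122 to 127831865) had 17.4 in Ctrl from 15 reads (interval 8.40 to 24.7) and 58.9 and 84.0 in *Gli1-Ptgs* cKO, a mean log2 difference of 1.96. The only replication gene beyond 2-fold, *Pola1* (ENSMUSG00000006678, chromosome X from 93304767 to 93632155), had 17.4 from 15 reads in Ctrl against 52.8 and 54.1 in *Gli1-Ptgs* cKO, a mean log2 difference of 1.57.

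*Mki67* and *Top2a*, with more reads, were also beyond 2-fold. *Mki67* (ENSMUSG00000031004, chromosome 7 from 135689784 to 135716361) had 142 normalized counts in the Ctrl villus library and 609 and 580 in the *Gli1-Ptgs* cKO villus libraries, a mean log2 difference of 2.05. *Top2a* (ENSMUSG00000020914, chromosome 11 from 98992943 to 99024189) had 199 in Ctrl against 521 and 555 in *Gli1-Ptgs* cKO, a mean log2 difference of 1.43. Their Ctrl values rest on 123 and 172 reads. *Nusap1* (mean log2 difference 1.26) and the spindle motors *Kif11* (1.25) and *Kif23* (1.16) were the others beyond 2-fold. The spindle factor *Tpx2* stood at 0.67 and the motor *Kif20a* at 0.45. The mitotic cyclins, *Cdk1*, *Plk1* and the Aurora kinases were not beyond 2-fold: *Ccna2* stood at 0.25, *Aurkb* at 0.17, *Plk1* at 0.10, *Cdk1* at -0.17, *Ccnb2* at -0.25, *Ccnb1* at -0.40 and *Aurka* at -0.52. *Cdc20* had 572 in Ctrl against 346 and 383 in *Gli1-Ptgs* cKO, and *Cenpa* had 463 in Ctrl against 225 and 326 in *Gli1-Ptgs* cKO, so both lay below Ctrl.

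The MCM ring was split in villi. *Mcm4* had 98.5 normalized counts in Ctrl against 184 and 171 in *Gli1-Ptgs* cKO, a mean log2 difference of 0.84. *Mcm5* had 518 in Ctrl against 244 and 277 in *Gli1-Ptgs* cKO, a mean log2 difference of -0.99, the lowest of all members. *Mcm6* stood at 0.01, *Mcm2* at -0.18, *Mcm7* at -0.41 and *Mcm3* at -0.48. Subunits of one ring with transcripts of 2962 to 4355 bases thus lay on both sides of Ctrl, and after the length correction *Mcm4* and *Mcm5* were at 0.78 and -1.01. In the Ctrl villus library *Mcm4* had 27.4 and *Mcm5* 153 normalized counts per kb, where in Ctrl crypts they had 634 and 784. Other replication genes above Ctrl in both libraries included *Mcm10* (0.72), the primase gene *Prim1* (0.66) and *Pole* (0.58), and others below it *Gins2* (-0.83), *Ccne1* (-0.81), *Tyms* (-0.68) and *Cdt1* (-0.56). *Pcna*, with 1019 in Ctrl against 1095 and 1204 in *Gli1-Ptgs* cKO, stood at 0.17.

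**Figure D4:**
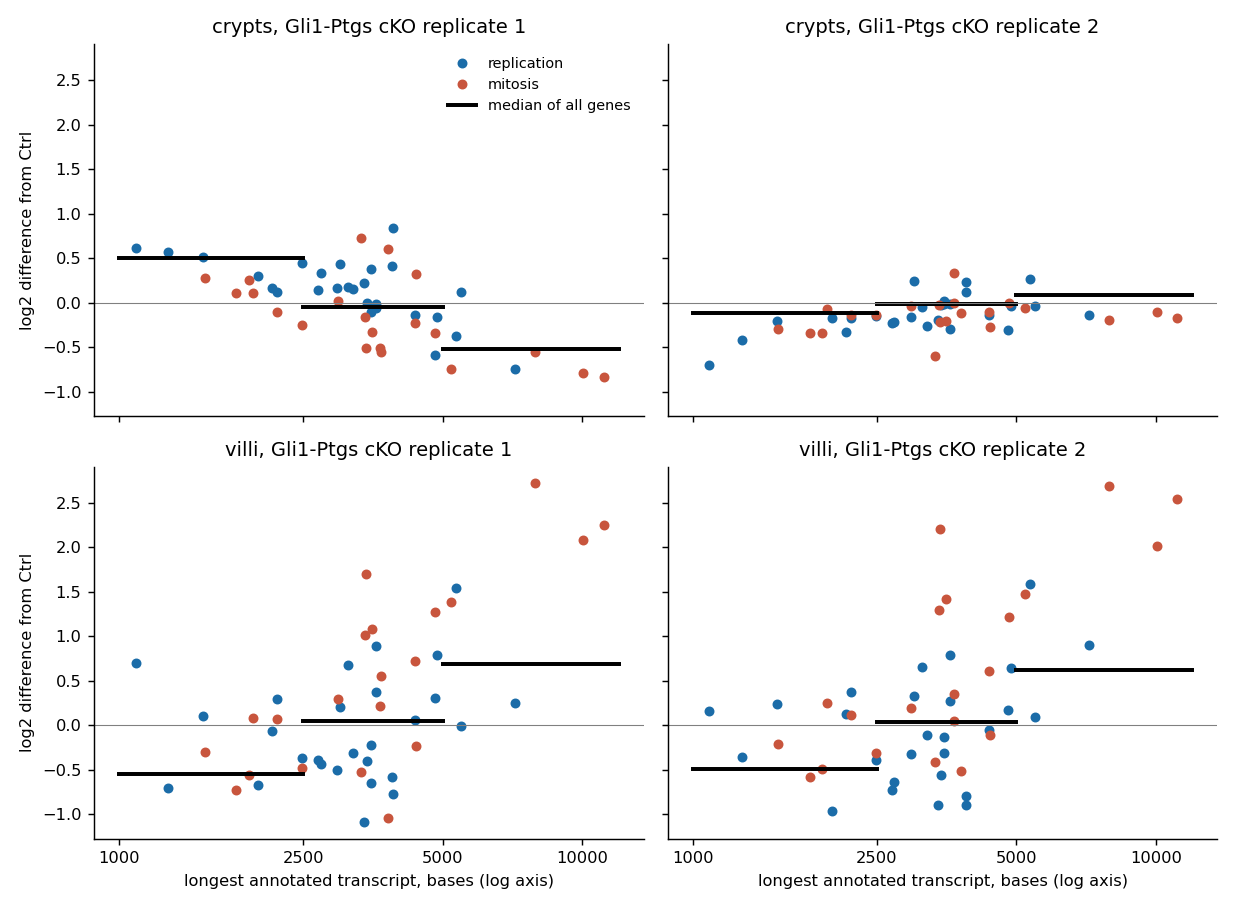
Log2 difference from Ctrl of each member against the length of its longest annotated transcript (log axis), in the 4 *Gli1-Ptgs* cKO libraries, with replication genes in blue and mitosis genes in red. Black bars are the medians of all genes under 2500, from 2500 to 5000 and over 5000 bases, which run from 0.50 to -0.52 in crypt replicate 1 and from -0.55 to 0.69 in villus replicate 1.

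Transcript length moved with these differences in both tissues. Across the 48 members the Spearman correlation of length with the log2 difference was -0.58 in *Gli1-Ptgs* cKO crypt replicate 1, 0.45 in crypt replicate 2, and 0.47 and 0.46 in the villus libraries. Members share each library, so these are descriptions. Among those 9 members 5 had transcripts over 5000 bases, of 7 such members in all. Within 2500 to 5000 bases, the 11 mitosis genes still had medians of 0.56 and 0.35 in the villus libraries and the 17 replication genes -0.31 and -0.13, beside 0.05 and 0.04 for all genes of that length. After the length correction the villus medians were 0.40 for mitosis and -0.15 for replication, and 5 mitosis genes and 1 replication gene stayed beyond 2-fold in both libraries. The share of all genes beyond 2-fold after the correction was not computed, so whether these counts are unusual cannot be told. *Bub1* was then at 1.93, *Cenpe* at 1.91, *Cenpf* at 1.34, *Nusap1* at 1.21, *Kif23* at 1.14, *Pola1* at 1.13, *Mki67* at 1.07 and *Top2a* at 1.01. *Kif23* and *Top2a* then had 1 library each under 2-fold, and *Kif11* (0.91) had both.

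In the difference between replication and mitosis genes, the Ctrl villus library lay outside the *Gli1-Ptgs* cKO villus libraries, while the crypt groups overlapped. With a single Ctrl library, separation in villi comes easily. Both *Gli1-Ptgs* cKO villus libraries lay above Ctrl for 43.7% of all genes and below it for 44.2%. In crypts the groups did not overlap for 9.73% of all genes (*Gli1-Ptgs* cKO higher) and 11.3% (lower). Separation in villi and overlap in crypts are thus not comparable, and the contrast was not tested. The mean log2 level of the replication genes minus that of the mitosis genes was -0.55 and -0.76 in Ctrl crypts and -0.34 and -0.63 in *Gli1-Ptgs* cKO crypts, which overlap. It was 0.29 in the Ctrl villus library and -0.30 and -0.40 in the *Gli1-Ptgs* cKO villus libraries. The mean over the replication genes was 7.18 in the Ctrl villus library and 7.14 and 7.15 in *Gli1-Ptgs* cKO, where that over the mitosis genes was 6.89 and then 7.44 and 7.55. By library size alone the replication mean was 6.97 in Ctrl against 7.42 and 7.32 in *Gli1-Ptgs* cKO. The mitosis genes did not share one direction, since 7 of 21 lay below Ctrl, and their median difference was 0.25. After the length correction the difference was 0.21 in Ctrl villi and -0.25 and -0.36 in *Gli1-Ptgs* cKO villi, and the crypt groups still overlapped. The Ctrl villus library was the only one of the 7 libraries in which replication genes exceeded mitosis genes.

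**Figure D5:**
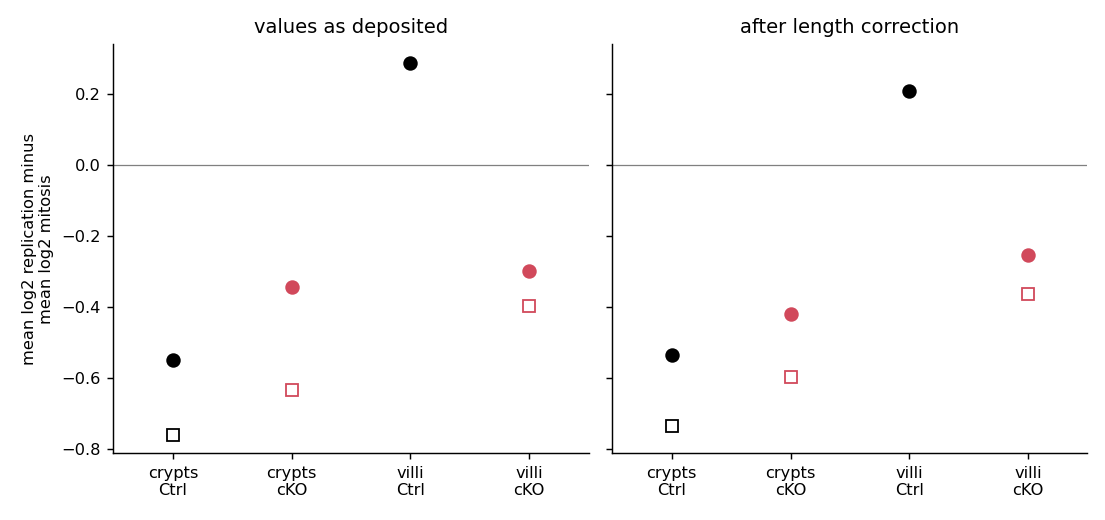
Mean log2(normalized count + 1) of the 27 replication genes minus that of the 21 mitosis genes in each library, from the deposited values on the left and after the length correction on the right. Black symbols are Ctrl, red symbols *Gli1-Ptgs* cKO, filled circles replicate 1 and open squares replicate 2. The Ctrl villus library alone lies above 0, at 0.29 on the left and 0.21 on the right.

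Some markers of other cells differed between the villus groups. The crypt stem cell markers summed to 199 CPM in the Ctrl villus library and to 465 and 352 CPM in *Gli1-Ptgs* cKO, and 7 of 10 lay above Ctrl in both libraries, against 43.7% of all genes, with a median log2 difference of 0.55 in normalized counts. The listed Paneth cell markers, 7 of 8, summed to 482 CPM in Ctrl and 961 and 598 CPM in *Gli1-Ptgs* cKO. In normalized counts their median log2 differences were 0.51 in replicate 1 and 0.05 in replicate 2. Of these 7 markers 4 lay above Ctrl in both libraries and 0 below, beside 43.7% and 44.2% of all genes. The 10 immune cell markers summed to 1863 CPM in Ctrl and 744 and 689 CPM in *Gli1-Ptgs* cKO, with 7 of 10 below Ctrl in both libraries, against 44.2% of all genes. Of the 10 enterocyte markers 2 lay above and 5 below Ctrl in both libraries, beside the same shares of 43.7% and 44.2%. In crypts the immune sums were 784 and 253 CPM in Ctrl and 491 and 352 CPM in *Gli1-Ptgs* cKO, and the mesenchymal sums also overlapped. The crypt Paneth sums were 26202 and 21569 CPM in Ctrl against 39004 and 21496 CPM in *Gli1-Ptgs* cKO, so replicate 1, which had the lowest mitosis sum, also stood apart in Paneth markers. The part of crypt cells, immune cells and library length in the villus values of the replication and mitosis genes was not tested.

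Wider lists of replication and mitosis genes, matched by name, were described by the same counts. Of 40 other replication genes 1 was higher and 11 lower without overlap in *Gli1-Ptgs* cKO crypts, against 9.73% and 11.3% of all genes, and their median log2 fold change was -0.03. Of 52 other mitosis genes 2 were higher and 11 lower, against the same shares, with a median of -0.15. In these wider lists mitosis genes were thus not lower without overlap more often than replication genes, unlike among the members. No gene of these or of the lists named next passed an adjusted p under 0.05 by limma-trend. Among the genes whose groups did not overlap, the largest log2 fold changes were those of the motor *Kif14* (-0.67), the Cdk1-activating phosphatase *Cdc25c* (0.59), the kinetochore gene *Ndc80* (-0.51) and the cohesin protector *Sgo1* (-0.45) for mitosis. For replication, again only among genes without overlap, they were those of the checkpoint adaptor *Clspn* (-0.42), the origin-firing kinase *Cdc7* (-0.39), the clamp loader *Rfc1* (-0.34) and the origin recognition gene *Orc3* (-0.34). In villi, 12 of the 52 mitosis genes and 4 of the 40 replication genes were more than 2-fold above Ctrl in both libraries, against 10.6% of all genes, with medians of 0.32 and 0.15. The share of the replication genes was thus near that of all genes. *Ndc80*, with 5.79 normalized counts in Ctrl from 5 reads and 40.5 and 36.7 in *Gli1-Ptgs* cKO, was among them, and so were *Sgo1*, *Cdc7* and *Clspn*. The Ctrl villus values of *Cdc7* and *Clspn* rest on 8 and 19 reads.

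Few regulators of the cycle had crypt groups without overlap, about as often as among all genes. Of 18 E2F, pocket protein and DREAM genes 2 were higher and 2 lower in *Gli1-Ptgs* cKO crypts, against 9.73% and 11.3% of all genes, and the median was -0.09. The atypical repressor *E2f8* (log2 fold change -0.45) and the retinoblastoma gene *Rb1* (-0.31) were the lower and the DREAM subunit gene *Lin52* (0.20) and *E2f2* (0.19) the higher. Of 9 G1 cyclins and kinases 1 was lower, against 11.3% of all genes. It was *Cdk6*, whose transcript of 11525 bases had 1741 and 1833 normalized counts in Ctrl against 845 and 1638 in *Gli1-Ptgs* cKO. Of 6 listed cyclin-dependent kinase inhibitors 1 was higher, against 9.73% of all genes. It was *Cdkn1b*, with 1314 and 1397 in Ctrl against 1970 and 1659 in *Gli1-Ptgs* cKO (log2 fold change 0.42, standard error 0.24). In villi the G1 list had a median log2 difference of 0.80. The 6 inhibitors had a median of -0.70, and 5 of them lay below Ctrl in both libraries, against 44.2% of all genes. They have short transcripts, with a median of 1990.5 bases. All villus genes under 2500 bases had medians of -0.55 in replicate 1 and -0.49 in replicate 2, and the inhibitors -0.86 and -0.55. The part of length was not tested. The median crypt-over-villus fold of the inhibitors was 0.98 in Ctrl and 0.87 in *Gli1-Ptgs* cKO, where those of the replication and mitosis genes were all above 5.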

How the data were processed

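RNA of crypts and villi was sequenced in Ctrl and *Gli1-Ptgs* cKO mice, 2 biological replicates per group per the study's methods. The authors aligned paired reads to mm10 with STAR and ran DESeq2. The deposited tables give, per library, a signal: gene counts divided by the library's size factor. The counting program, strand setting and annotation are not given in the sources used here, so overlapping and antisense genes are uncertain. The deposited columns of the authors' own fold changes and p-values were not used. The labels and the methods name different RNA and library kits. Only genes with an adjusted p are listed. 100% of values were whole multiples of 1 read within 0.01 reads, which gave the reads. The identical Ctrl villus columns were counted once.

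The members and lists were chosen with earlier results of these data known. Of the members, all 49 may be named. Values per library are given for the 6 replication and 6 mitosis members with the most normalized counts per kb in Ctrl crypts and the 4 of each with the largest absolute crypt log2 fold change among those whose groups do not overlap, with up to 4 genes of each other list by the same fold rule. Other values were chosen after they were seen. The crypt groups were tested by limma-trend on log2(normalized count + 1), mean at least 1, in R 4.3.3 with limma 3.58.1, without a block, with Benjamini-Hochberg adjustment over 11554 genes. For villi and tissues values are given without a test. A difference beyond 2-fold means beyond 2-fold in every library on the log2 scale named. CPM used the reads on the 11227 shared genes and a pseudocount of 0.1. Lengths are the longest GENCODE M21 transcripts. Which transcript was expressed was not measured, so values per kb and length-corrected values can be off for genes that express a shorter one. The length correction subtracted a lowess curve (span 0.3) from each library. P-values cover the spread between libraries. The test was also run on simulated counts with planted changes larger than those of any member, so that run does not show how often changes of the members' size would be called. Alternatives were edgeR 4.0.16 and DESeq2 1.42.0 on recovered reads, other filters, scaling, a pseudocount of 0.1, the replicate block and leaving out each library. Mid-length transcripts alone, replicate 2 alone and the length-corrected group counts were chosen after seeing the data.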

Additional observations from a re-analysis of the deposited data

Results flagged for a closer look

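11 members lay on opposite sides of Ctrl in the 2 tissues: both *Gli1-Ptgs* cKO libraries were on one side of the Ctrl libraries in crypts and on the other side of the Ctrl library in villi. This is 22.9% of the 48 members, against 12.9% of the 11227 genes in both tables. The difference between tissues was not tested, since the Ctrl villi are 1 library. Of these, 9 were lower in crypts and higher in villi, which 6.95% of all genes were. Their log2 differences in villi were 2.71 for *Cenpe*, 2.40 for *Cenpf*, 2.05 for *Mki67*, 1.96 for *Bub1*, 1.43 for *Top2a*, 1.26 for *Nusap1*, 0.58 for *Pole*, 0.24 for *Cdc6* and 0.10 for *Plk1*, where their crypt log2 fold changes lay between -0.50 and -0.12. The other 2 were higher in crypts and lower in villi, which 5.99% of all genes were, with villus log2 differences of -0.83 for *Gins2* and -0.68 for *Tyms* and crypt log2 fold changes of 0.54 and 0.27. Transcript length moved with the differences in opposite directions in *Gli1-Ptgs* cKO crypt replicate 1 and in the villus libraries. After the length correction *Cdc6* stood at -0.09 and *Pole* at -0.13 on average in villi, on the side of their crypt values, while the crypt values of *Cenpe*, *Cenpf* and *Plk1* overlapped between the groups.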

How the results depend on the processing

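The count of crypt genes at an adjusted p under 0.05 was 0 by limma-trend (73 at an unadjusted p under 0.05), 34 with the replicate block, 11 by DESeq2 on recovered reads, and 0 to 1987 when each library was left out. The largest of these counts came without *Gli1-Ptgs* cKO replicate 2, and 4 without Ctrl replicate 2. Genes past the study's threshold, 20 higher and 1 lower, numbered 63 and 15 with the replicate block, 60 and 5 by DESeq2, and 15 to 593 higher and 3 to 288 lower with a library left out. The lower count was 3 by edgeR, 4 by library size alone, 4 with the length correction and 6 with the length correction and replicate block. Same-numbered libraries deviated with a correlation of 0.247 across genes, and the labels do not say that a number marks a shared litter or day. Members called were 0 in each of these alternatives, block included, except 0 to 5 with a library left out.

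The mitosis median in crypts, -0.12, was -0.19 by library size alone and -0.22 to -0.13 with a library left out, and the replication median -0.15 to 0.17. Replication minus mitosis in crypts, 0.17 higher in *Gli1-Ptgs* cKO, ran from 0.02 to 0.31. In villi the replication median of 0.01 was 0.44 by library size alone, -0.15 with the length correction and -0.058 to -0.046 with a library left out. The mitosis median of 0.25 was 0.68, 0.40 and 0.26 to 0.29. Replication minus mitosis in villi, -0.64, was -0.52 with the length correction and -0.69 to -0.59 with a library left out. The log2 crypt-over-villus medians of 2.66 and 3.55 in Ctrl were 2.34 and 2.68 in *Gli1-Ptgs* cKO, and the mitosis median 3.68 for transcripts of 2500 to 5000 bases. The cause of these shifts was not tested. Ctrl villus values of *Cenpe*, *Cenpf*, *Bub1* and *Pola1* rest on 11 to 15 reads.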
